A study of Mus musculus with 29 samples.

Results

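The immunoglobulin gene segments are the V, D and J segment genes from which B cells build antibody genes. They were chosen by name and position alone: every gene of the mm10 RefSeq table on chromosomes 6, 12 and 16 whose symbol starts with Ighv, Ighd and a digit, Ighj, Igkv, Igkj, Iglv or Iglj, with pseudogenes left out. There were 247 such genes among the 46709 RefSeq genes of chromosomes 1 to 19. Of these, 134 belonged to the heavy chain locus Igh, 107 to the kappa light chain locus Igk and 6 to the lambda light chain locus Igl. By segment kind there were 225 V, 10 D and 12 J segments.

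The study profiled H2Aub (ubiquitin on histone H2A, placed by Polycomb complexes) and H3K27me3 (a methyl mark placed by the Polycomb complex that contains Eed) in oocytes and embryos of the mouse. The assay, CUT&RUN, cuts and sequences the DNA under an antibody bound to the mark. The 29 libraries formed 16 groups of 1 to 3, with 24 libraries of H2Aub and 5 of H3K27me3, from 1 to 300 oocytes or embryos each where the labels give the input. The values analysed here are a single division of the genome into 5 H2Aub types that the authors deposited for the whole series. Germinal vesicle (GV) oocytes called WT were B6/129 mixed Eed (fl/fl), and the Eed MatKO oocytes were Gdf9-Eed (fl/fl) on that background, a deletion driven in oocytes by the Gdf9 promoter. Metaphase II (MII) oocytes were B6/DBA WT. Zygotes, inner cell mass, E6.5 epiblast and 1 of the 3 WT 2-cell libraries came from B6/DBA x PWK, WT x WT. The other 2-cell libraries and the WT 4-cell and morula libraries came from B6/129 mixed x PWK, Eed (fl/fl) x WT, and the Eed MatKO 4-cell and morula libraries from the same cross with a Gdf9-Eed (fl/fl) mother. The 4-cell PR-DUB libraries, control (CTR) and overexpression (OE) of a deubiquitinase of H2A, were B6/DBA x PWK, WT x WT, and the H3K27me3 GV library was B6/DBA WT. The type table has no column for any of these libraries, so no group, stage, strain or parental allele has a value of its own, no replicate could be compared and no difference was tested.

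Each antibody chain gene is assembled in developing lymphocytes by V(D)J recombination, in which the Rag1 and Rag2 proteins cut at recombination signals beside the segments and the ends are joined. A heavy chain joins a D to a J segment and then a V to the joined DJ, while a light chain joins a V directly to a J. In oocytes and early embryos the segments are in the unrearranged germline order, which at the heavy and kappa chain loci has a long row of V segments on one side and the J segments next to the constant region genes on the other. The V segments of each locus fall into subgroups of related sequence, given by the first number in their symbol, and many arose from each other by duplication.

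None of the 247 members (0 of 247) had an entry in the RefSeq promoter table. The sequences shown instead are those of other genes that lie among the segments, all from RefSeq, build GRCm38.p6, 5′ to 3′ on the gene's strand. The windows run from 250 bases before to 50 after the annotated gene start. Adam6a and Adam6b, a pair of genes needed for male fertility, are shown because their windows share 199 bases letter for letter yet stand in segments of different type. Adam6a stood at chr12:113543658-113543957 (plus strand) in the type 5 segment that also holds the first V genes, and Adam6b at chr12:113489315-113489614 (plus strand) in the type 2 segment that holds the J and D segments. Capitals mark the shared run, positions 102 to 300 of Adam6a and 1 to 199 of Adam6b.

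Adam6a: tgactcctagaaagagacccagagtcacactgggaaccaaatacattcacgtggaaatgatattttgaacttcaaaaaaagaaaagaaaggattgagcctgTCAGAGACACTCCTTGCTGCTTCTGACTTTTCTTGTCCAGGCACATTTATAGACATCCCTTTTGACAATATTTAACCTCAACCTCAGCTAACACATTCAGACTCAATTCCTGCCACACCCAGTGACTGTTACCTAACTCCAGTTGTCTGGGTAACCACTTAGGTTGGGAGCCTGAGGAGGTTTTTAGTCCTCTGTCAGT
Adam6b: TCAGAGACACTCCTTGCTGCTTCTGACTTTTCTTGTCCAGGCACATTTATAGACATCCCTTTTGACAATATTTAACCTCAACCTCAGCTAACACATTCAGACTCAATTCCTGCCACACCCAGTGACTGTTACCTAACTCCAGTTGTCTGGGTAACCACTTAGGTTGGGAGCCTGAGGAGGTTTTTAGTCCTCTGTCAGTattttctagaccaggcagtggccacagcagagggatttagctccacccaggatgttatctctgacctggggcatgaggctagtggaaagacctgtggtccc

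The third window is that of the long noncoding RNA gene Gm46961, at chr6:70718827-70719126 (minus strand). It is shown because it lies between the last kappa V gene and the kappa J segments, inside the type 4 segment of the J cluster. Capitals mark its 2 CpG dinucleotides, and its GC content was 44.3%.

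Gm46961: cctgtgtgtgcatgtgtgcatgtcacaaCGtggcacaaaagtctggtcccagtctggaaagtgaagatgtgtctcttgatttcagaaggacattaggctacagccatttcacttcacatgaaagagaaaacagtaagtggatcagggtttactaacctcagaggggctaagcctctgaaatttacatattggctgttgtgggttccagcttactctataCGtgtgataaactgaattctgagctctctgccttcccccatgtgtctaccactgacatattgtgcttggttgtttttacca

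The last windows are shown because they hold the octamer ATGCAAAT, a motif known from V gene promoters and bound by Oct factors. It was searched as exact letters on both strands. The capitals mark the match, which in both is the reverse complement: positions 182 to 189 of the long noncoding RNA gene LOC108169192 at chr6:68880650-68880949 (minus strand, type 5, among Igkv4 genes) and positions 281 to 288 of Gm35545 at chr16:19218252-19218551 (plus strand, type 1, in the lambda array).

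LOC108169192: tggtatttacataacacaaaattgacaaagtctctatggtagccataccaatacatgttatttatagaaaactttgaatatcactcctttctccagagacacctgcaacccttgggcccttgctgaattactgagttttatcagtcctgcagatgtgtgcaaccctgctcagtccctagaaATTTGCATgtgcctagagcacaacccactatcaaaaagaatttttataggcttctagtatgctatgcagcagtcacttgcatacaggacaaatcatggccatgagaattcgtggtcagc
Gm35545: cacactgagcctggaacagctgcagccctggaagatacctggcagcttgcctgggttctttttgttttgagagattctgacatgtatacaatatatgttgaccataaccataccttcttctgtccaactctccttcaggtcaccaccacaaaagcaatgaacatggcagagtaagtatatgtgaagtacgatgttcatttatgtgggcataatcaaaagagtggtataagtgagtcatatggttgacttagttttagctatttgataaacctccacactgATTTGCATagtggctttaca

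Of the 68 other genes inside the arrays, 12 had a promoter window: Adam6a, Adam6b and otherwise only long noncoding RNA genes. The windows of the whole table, set beside them, were not matched for kind of gene. The median GC content of the 12 was 42.9% (26.3% to 51.7%), against 52.7% over all 32851 windows of the table. The 12 held a median of 1 CpG (0 to 5) against 7. The octamer was in 2 of the 12, against 1.74% of all windows. The letters of the recombination signal heptamer CACAGTG were in 3 of the 12, against 6.81% of all windows. Those of the nonamer ACAAAAACC were in 0 of the 12, against 0.371%. A match describes the letters of the window only.

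A further pair of near copies lies inside the longest type 5 stretch of the V array. These are the microRNA genes Mir7094-1 and Mir7094-2 on the minus strand of chromosome 12. Their 5p products occupy chr12:114469444-114469466 and chr12:114513672-114513694, and both copies encode the same 3p product. Seeds (bases 2 to 8) are in capitals.

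mmu-miR-7094-1-5p: uCUGAAGAggauacagggucuga
mmu-miR-7094b-2-5p: uCUGGAGAggauacagggucuga
mmu-miR-7094-3p: uACUCUGCuguucucuccaca

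The 5p products differ by A5G, counted from 1 at the 5′ end, and so have different seeds, while the shared 3p product has a seed of its own. Both genes were wholly in type 5. Mir6388, the other microRNA gene of the heavy chain array, was in type 1.

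The table gives each 5 kb bin a type from 1 to 5, a category and not a level, and no key to the types is given in the sources used here. A gene was given the type that covers the largest part of its body. Segment genes are short, with a median length of 393 bases (11 to 767), so 246 of the 247 lay wholly in 1 type. The exception was Igkv1-135 (chromosome 6, 67609745 to 67610508), of which 508 bases (66.5%) were in type 5 and 256 bases (33.5%) in type 1.

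Types 1 and 5 held 222 of the 247 members. Type 5 held 118 (47.8%, exact Clopper-Pearson 95% interval 41.4% to 54.2%), against 12.8% of all RefSeq genes. Type 1 held 104 (42.1%, 35.9% to 48.5%), against 33.0% of all genes. Type 2 held 19 (7.69%, 4.69% to 11.8%), close to the 7.20% of all genes. Type 4 held 6 (2.43%, 0.897% to 5.21%), against 15.9%. Type 3 held 0 of 247, which allows a share of up to 1.48%, against 31.0% of all genes. These intervals cover counting error only. The 247 members lay in 50 segments of the division, 239 of its bins held at least 1, and members of 1 segment share its type, so they are not independent.

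Among protein-coding genes alone, 37.2% were in type 1, 33.8% in type 3 and 9.53% in type 5. The 135 segment pseudogenes of the same names, which the rule leaves out, were at 42.2% in type 1, 48.9% in type 5 and 0 in type 3. They lie between the members. The plot of shares by gene set shows the J and D clusters apart from the V genes.

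**Figure D1:**
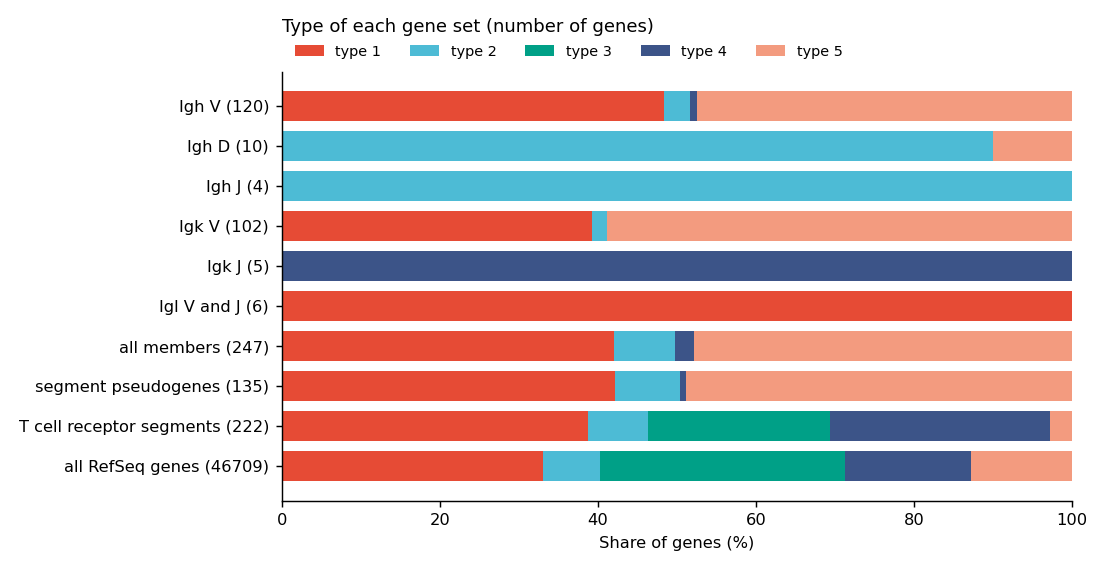
Share of genes (%, horizontal axis) in each of the 5 types for the immunoglobulin segments by locus and kind, for all 247 members, for their pseudogenes, for T cell receptor segments and for all RefSeq genes, with the number of genes in parentheses. Igh J and D segments are almost all type 2, Igk J segments all type 4 and Igl segments all type 1, while V genes of Igh and Igk divide between types 1 and 5.

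The J segments, which supply the last part of the variable domain, were of 1 type in each locus and of another type in each of the 3 loci. The 4 heavy chain J segments, Ighj1 to Ighj4, span 1.32 kb of chromosome 12 (113428514 to 113429833) and were all in type 2. The 5 kappa J segments, Igkj1 to Igkj5, span 1.36 kb of chromosome 6 (70722562 to 70723923) and were all in type 4. The 3 lambda J segments, Iglj1, Iglj2 and Iglj3, spread over 137 kb of chromosome 16 and were all in type 1. No J segment was in type 3 or type 5. As each cluster lay in a single segment, this is 3 labels and not 12 separate observations.

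The D segments, which exist only at the heavy chain locus here, followed the heavy chain J segments with 1 exception. From Ighd4-1 (DQ52), 0.7 kb from Ighj1, to Ighd1-1 (DFL16.1), 52.3 kb away, 9 of 10 were in type 2. The exception was Ighd3-1, the D segment farthest from the J cluster at 95.5 kb (113525313 to 113525329), which was in type 5. The border between the types lies 5.32 kb from it, on its J side. The stretch between Ighd1-1 and Ighd3-1 holds Adam6b, in type 2, and Adam6a lies beyond Ighd3-1, in type 5.

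The type 2 segment of the D and J clusters ran for 230 kb (113290001 to 113520000) and was longer than 97.8% of all type 2 segments. It also held 5 heavy chain constant region genes, which encode the antibody classes: Ighm, Ighd, Ighg3, Ighg1 and Ighg2b. The last 3 constant genes of the row, Ighg2c, Ighe and Igha, were in the type 4 segment of 50 kb next to it. At Igk the 45 kb type 4 segment (70710001 to 70755000) held Igkc, the single kappa constant gene, with the J cluster. All 4 lambda constant genes, Iglc1 to Iglc4, of which Iglc4 is annotated as a pseudogene, were in type 1 with the lambda J segments. Each of these 13 constant genes lay wholly in 1 type.

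**Figure D2:**
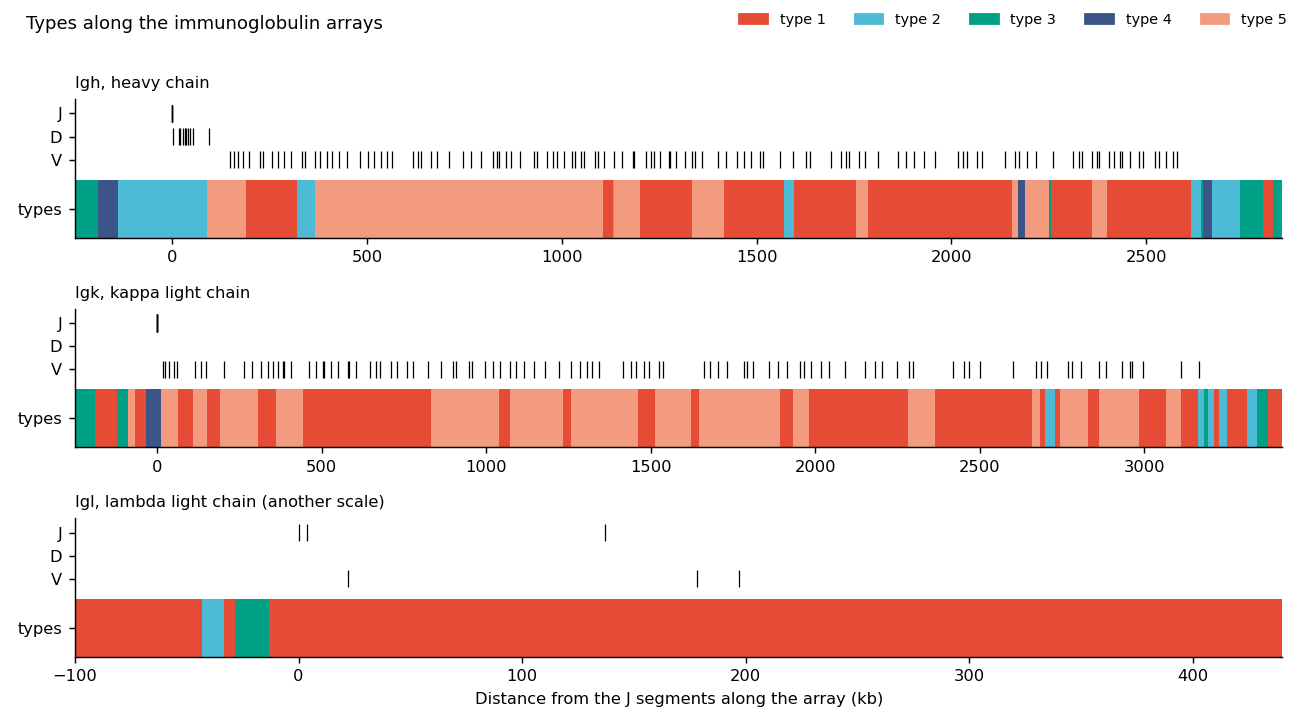
The 3 arrays drawn from the J segments (distance in kb, horizontal axis, with its own scale for Igl), with ticks for J, D and V segments and a band coloured by type below. A single type 5 segment of 740 kb takes up much of the nearer side of the Igh V array and type 1 most of the farther side, Igk changes between types 1 and 5 along its whole length, and the Igl array is inside a single type 1 segment.

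The 120 heavy chain V genes, which encode most of the antigen-binding heavy chain domain, divided almost evenly, with 58 (48.3%) in type 1 and 57 (47.5%) in type 5, while 4 were in type 2 and 1 in type 4. They span 2431 kb (113578504 to 116009954) on the other side of the D segments from J. Position separated them. Of the 60 V genes nearer to J, Ighv5-2 to Ighv1-16, 46 (76.7%) were in type 5 and 11 (18.3%) in type 1. Of the 60 farther ones, Ighv1-18 to Ighv1-86, 11 (18.3%) were in type 5 and 47 (78.3%) in type 1.

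Counted in runs of 30 V genes from the J side, type 5 held 21, 25, 5 and 6, and type 1 held 7, 4, 24 and 23. The first of these runs reached from 149 to 679 kb from J, the second from 711 to 1236 kb, the third from 1253 to 1929 kb and the last from 1957 to 2580 kb. The step lies between the second and the third. Much of the near side rests on a single segment of 740 kb with 39 V genes. Without it, 21 V genes remain on the near side, 7 (33.3%) in type 5 and 11 (52.4%) in type 1, so that type 5 no longer holds most of them.

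**Figure D3:**
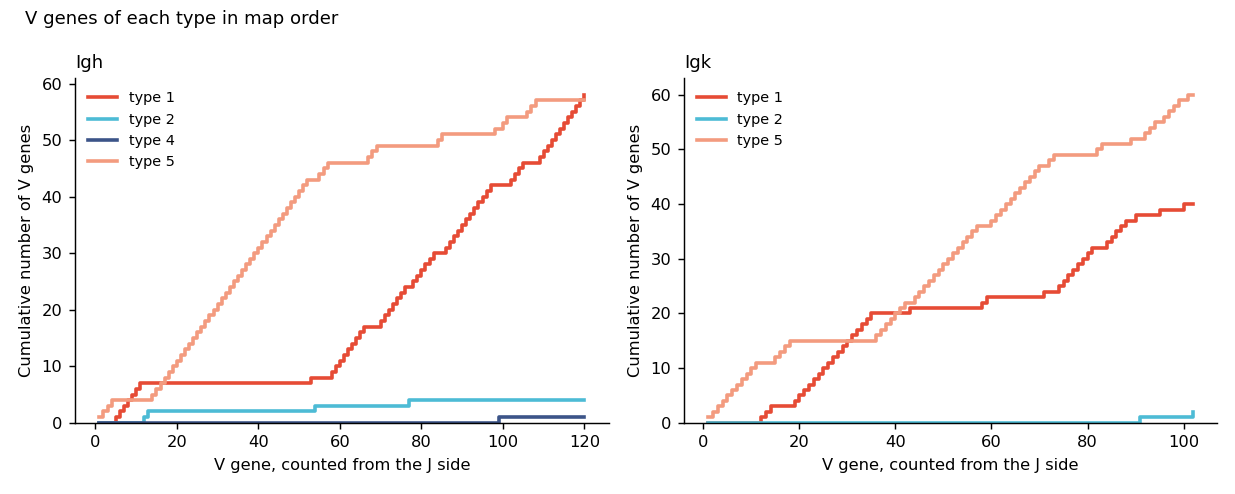
Cumulative number of V genes of each type (vertical axis) against the order of V genes from the J side (horizontal axis), for Igh with 120 V genes and Igk with 102. At Igh the type 5 line climbs first and the type 1 line after about the 57th gene, whereas at Igk both climb in turn along the array.

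From the J side, the heavy chain V genes began in type 5. Ighv5-2 (VH81X), known for its frequent use in early rearrangements, stood 149 kb from J in a type 5 segment of 100 kb with Ighv2-2, Ighv5-4 and Ighv2-3. Next came 7 genes in type 1 (130 kb, Ighv5-6 to Ighv5-9-1) and 2 in type 2 (45 kb, Ighv5-12-4 and Ighv2-9-1). The 740 kb type 5 segment (113795001 to 114535000) followed, from Ighv2-6-8 at 366 kb to Ighv10-3 at 1094 kb from J. It was the 152nd longest of 3777 type 5 segments, longer than 95.9% of them. Over chromosomes 1 to 19, type 5 segments had a median of 45 kb and reached 11205 kb. In this and the other ranks given here each segment counts once, and a long segment is more likely to hold genes than a short one.

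Beyond it, the array changed type at shorter steps. Ighv1-7 was in type 1 (25 kb), Ighv15-2 in type 2 (5 kb, a single bin) and Ighv1-9 to Ighv1-12 in type 5 (65 kb, 3 genes). Then came Ighv1-14 to Ighv1-23 in type 1 (135 kb, 9 genes), Ighv1-24 to Ighv1-31 in type 5 (80 kb, 3 genes) and Ighv1-34 to Ighv1-47 in type 1 (155 kb, 7 genes). Ighv8-4 was alone in type 2 (25 kb), followed by Ighv1-49 to Ighv8-6 in type 1 (160 kb, 6 genes) and Ighv1-54 with Ighv1-55 in type 5 (30 kb). These steps all lie in the part of the array made up mostly of Ighv1 and Ighv8 genes.

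The far end was mainly type 1. The type 1 segment from Ighv1-56 to Ighv8-11 (370 kb, 12 genes) was longer than 96.5% of type 1 segments. Ighv1-66 in type 5 (15 kb), Ighv1-67 in type 4 (20 kb) and Ighv1-69 with Ighv8-12 in type 5 (60 kb) came next. Ighv1-67, at 115603940 to 115604233 and 2174 kb from J, was the only heavy chain V gene in type 4. A single bin of type 3 followed that held no member, then 105 kb of type 1 with 4 genes (Ighv1-70 to Ighv8-13), 40 kb of type 5 with 3 genes (Ighv1-73 to Ighv8-14) and 215 kb of type 1 with the last 12 genes (Ighv1-75 to Ighv1-86). Ighv1-72 (V186.2), known from the response to the hapten NP, was among the 4 in the 105 kb segment and is named here for that role, after its value was seen.

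The 102 kappa V genes span 3149 kb of chromosome 6 and were more often type 5, with 60 (58.8%) in that type, 40 (39.2%) in type 1 and 2 in type 2. The difference between the 2 loci was not tested. Counted from the J side in runs of 26, 26, 25 and 25, type 5 held 15, 16, 18 and 11 and type 1 held 11, 10, 7 and 12. In the plot of cumulative numbers the kappa lines climb in turn, without the step of the heavy chain array.

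The last kappa V gene before J, Igkv3-1, was in type 5 and ended 18.4 kb from Igkj1. The change from type 5 to type 4 fell in that gap, 5.82 kb from Igkv3-1 and 12.6 kb from Igkj1. Igkv3-1 to Igkv3-5 shared a type 5 segment of 50 kb. At the far end, 3167 kb from J, Igkv2-137 was in type 2 (20 kb). The other V gene of type 2 was Igkv1-122, in 30 kb at 2705 kb from J.

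The longest kappa stretches were 3 of type 1 followed by one of type 5. A type 1 segment of 390 kb (69890001 to 70280000) held 17 V genes, Igkv5-39 to Igkv6-23, and was longer than 96.8% of type 1 segments. Type 1 segments of 300 kb (8 genes, Igkv20-101-2 to Igkv19-93) and 295 kb (5 genes, Igkv1-117 to Igkv2-109) lay farther from J. The longest type 5 segment had 245 kb and 9 genes, Igkv12-89 to Igkv4-78. A pair of 205 kb held 8 genes (Igkv4-70 to Igkv4-60) and 7 genes (Igkv4-50 to Igkv12-41). Without the 390 kb segment, 25.6% of the Igk members were in type 1 and 66.7% in type 5, against 37.4% and 56.1% with it.

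The 6 lambda segments were all in 1 type 1 segment of 640 kb (chromosome 16, 19050001 to 19690000), the 101st longest of 7960 type 1 segments and the 3rd longest of 229 on its chromosome. The order along it was Iglj1 (19063225), Iglj3 (19067041), Iglv1 (19085017), Iglj2 (19200198), Iglv3 (19241208) and Iglv2 (19260403). The segment began 13.2 kb before the array and ran on for 429 kb after it. It held 25 genes whole, and the 8 among them annotated as protein-coding were olfactory receptor genes (Olfr), which encode odorant receptors of the nose. The gene Lamp3 (19653381 to 19706365) lay partly in it, across its upper border.

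**Figure D4:**
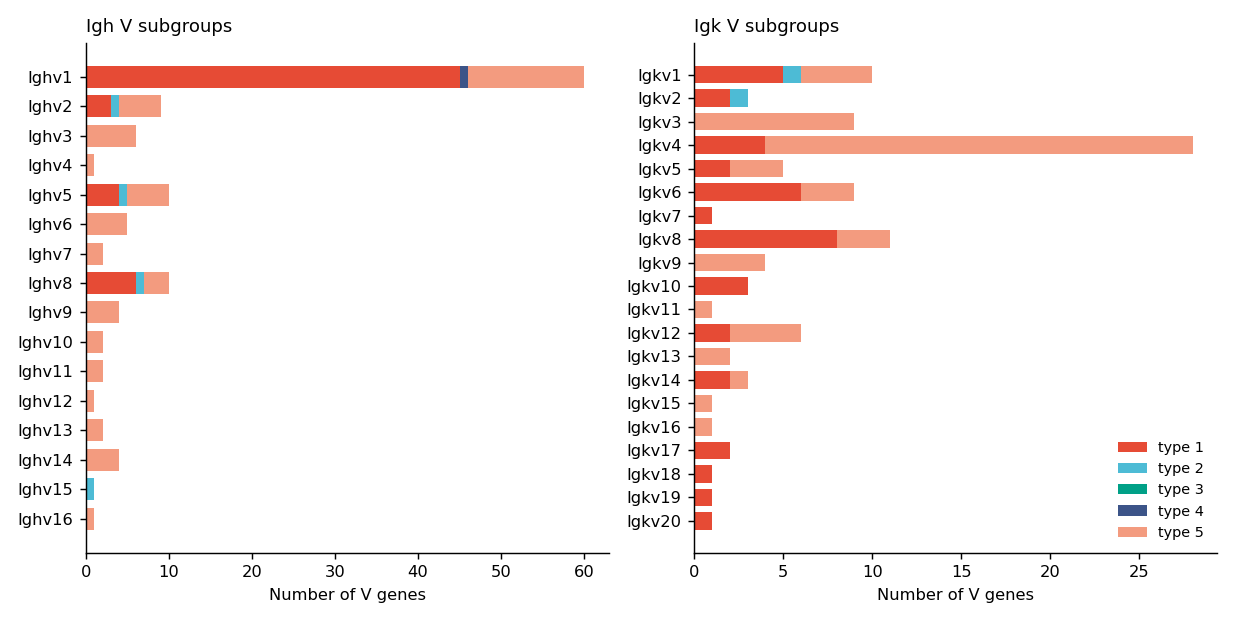
Number of V genes (horizontal axis) in each type by V subgroup, for Igh on the left and Igk on the right. Ighv1 is mostly type 1 and Igkv4 mostly type 5, and the smaller heavy chain subgroups Ighv3, Ighv6, Ighv9 and Ighv14 are wholly type 5.

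Types were also counted by V subgroup. Many subgroups keep to a stretch of the array, so subgroup and position cannot be told apart for them, and neither was tested. Ighv1, the largest heavy chain subgroup with 60 genes, had 45 in type 1, 14 in type 5 and 1 in type 4, spread over 15 segments. Ighv3 (6 genes), Ighv6 (5), Ighv9 (4) and Ighv14 (4) were wholly in type 5, and every gene of these 4 subgroups was in the 740 kb segment, so their agreement is 1 label. Ighv5 had 4 in type 1, 1 in type 2 and 5 in type 5, Ighv2 had 3, 1 and 5, and Ighv8 had 6, 1 and 3. Of the 6 heavy chain subgroups with at least 5 genes, 4 had members in both types 1 and 5.

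Among the kappa subgroups, Igkv4, the largest with 28 genes, was in 9 segments and had 24 in type 5 and 4 in type 1 (Igkv4-90, Igkv4-72, Igkv4-71 and Igkv4-51). Igkv3, the subgroup next to the J segments, had all 9 in type 5 over 3 segments, while the type 1 segments between them held no member. Igkv8 (8 in type 1, 3 in type 5) and Igkv6 (6 and 3) leaned the other way, with 7 of the 11 Igkv8 genes and 4 of the 9 Igkv6 genes in the 390 kb type 1 segment. Igkv1 had 5 in type 1, 4 in type 5 and 1 in type 2. Igkv9 (4 genes, 3 segments, 2672 to 2883 kb from J) was wholly in type 5. Igkv17 (2 genes, 2 segments, 2685 to 2861 kb), which lies among them, was wholly in type 1. Of the 7 kappa subgroups with at least 5 genes, 6 had members in both types 1 and 5.

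Neighbouring V genes were usually of the same type. At Igh, 100 of 119 neighbouring pairs (84%) matched, with 19 changes and a median gap of 17.9 kb between genes. At Igk, 79 of 101 (78.2%) matched, with 22 changes and a median gap of 24.2 kb. The V genes lay in only 20 segments at Igh and 27 at Igk. Genes of 1 segment share its type, so the matches are not separate observations. The widest kappa gap, 125 kb between Igkv4-78 and Igkv4-74, held a whole type 1 segment of 25 kb with no member. There were 4.6 V genes per 100 kb of type 1 and 5.04 per 100 kb of type 5 at Igh, and 2.67 and 3.7 at Igk.

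The members lay a median of 41.1 kb from the nearest border between types, and 21 of them were within 5 kb of one, the width of a bin. The closest were Igkv1-135 at 0.125 kb, Ighv15-2 at 0.274 kb, Ighv1-23 at 0.404 kb, Ighv1-73 at 0.739 kb, Ighv8-4 at 0.828 kb and Igkv4-53 at 0.911 kb, the last named after its value was seen. A shift of the borders by 1 bin could change the type of these genes. The deposited division gives no probability for a bin's type.

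**Figure D5:**
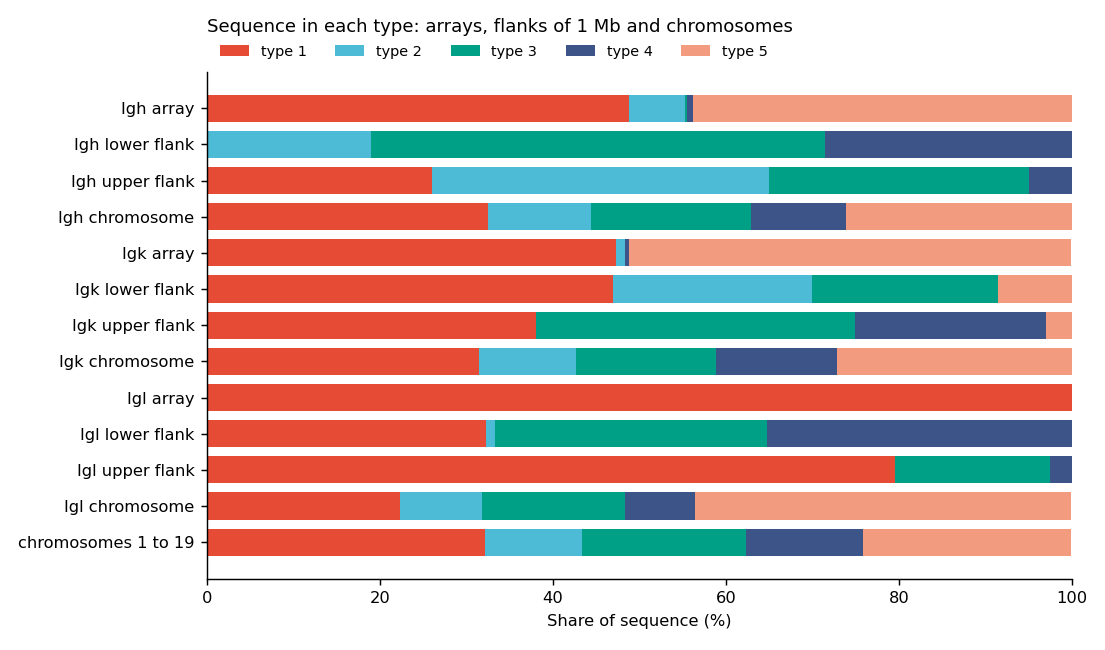
Share of sequence (%, horizontal axis) in each type for each array, for 1 Mb on its lower and upper coordinate side, for its chromosome and for chromosomes 1 to 19. Type 5 makes up 43.8% of the Igh array and 51.1% of the Igk array but at most 8.5% of any flank, and type 3 is nearly missing from the arrays.

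The sequence of the arrays showed the same types as their genes. From the first to the last member, the Igh array (2.58 Mb) was 48.8% type 1, 43.8% type 5, 6.45% type 2, 0.775% type 4 and 0.194% type 3. The Igk array (3.17 Mb) was 47.3% type 1, 51.1% type 5, 1.08% type 2 and 0.439% type 4, with 0 of type 3. Chromosomes 1 to 19 were 32.1% type 1, 24% type 5 and 19% type 3. Type 5 covered 24% of this sequence but 12.8% of its genes.

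The flanks of both large arrays held less type 5 and more type 3 than the arrays. In the 1 Mb on either side of Igh there was 0% of type 5, and type 3 made up 52.5% of the side next to the constant genes and 30% of the other. Type 1 made up 0% and 26% of these sides. Beside Igk, type 5 made up 8.5% of the V side and 3% of the J side, and type 3 made up 21.5% and 36.9%. Type 1 made up 46.9% and 38% of these flanks, against 47.3% of the Igk array. Beside Igl, type 1 made up 32.3% of the lower and 79.5% of the upper 1 Mb, and type 4 made up 35.2% of the lower. In 500 kb flanks, type 5 stayed at 0% on both sides of Igh and was 17% on the V side and 4% on the J side of Igk, where type 1 made up 32% and 20%.

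Borders between types 1 and 5 were the most frequent kind in both large arrays. At Igk, 29 of 33 borders (87.9%) joined types 1 and 5, and at Igh 10 of 21 (47.6%), against 6.96% of the 31565 borders of chromosomes 1 to 19. Types 1 and 5 cover most of both arrays, so these counts are not independent of the shares of sequence given above. The most frequent border genome-wide, between types 1 and 3 (26%), occurred once at Igh and not at Igk. There were 8.13 borders per Mb at Igh and 10.4 at Igk, against 12.8 over the chromosomes. The type 5 segments of the arrays had a median length of 62.5 kb at Igh (8 segments, 15 to 740 kb) and 85 kb at Igk (15 segments, 25 to 245 kb), against 45 kb over all, and the type 1 segments 145 kb (8 segments) and 42.5 kb (16 segments), against 50 kb.

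The 68 other genes inside the arrays, mostly pseudogenes, had 38 (55.9%) in type 1 and 25 (36.8%) in type 5. Of the rest, 4 were in type 4, 1 was in type 2 and 0 in type 3. Among all RefSeq genes, 33.0% were in type 1 and 12.8% in type 5. A gene in the same segment as a member shares its label, so these counts are not independent of the members' counts. The only 2 of the 68 annotated as protein-coding, Adam6a and Adam6b, are described above. The 68 also include Iglc2, Iglc3 and Iglc4, counted above among the constant genes too, and Gm7003, annotated as a V segment under another name.

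T cell receptor genes are built from V, D and J segments by the same recombinase, so their 222 segments are the nearest comparison. They held 2.7% in type 5, against 47.8% of the immunoglobulin segments, and 23% in type 3 and 27.9% in type 4. Their 148 V segments had 82 in type 1 and 6 in type 5. By locus, type 5 held 2 of 119 alpha and delta V segments, 4 of 22 beta and 0 of 7 gamma. The T cell receptor J clusters were again of 1 type per locus: 53 of 53 alpha and delta J segments in type 4, 13 of 13 beta in type 3 and 4 of 4 gamma in type 1. Here too, genes in 1 segment of the division share its type and are not independent. The difference between the receptor families was not tested. Of the large chemoreceptor families, also arranged in arrays, 55.7% of the 1103 Olfr genes and 22.2% of the 351 vomeronasal receptor (Vmn) genes were in type 5, and 30.4% and 71.5% in type 1.

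The genes that act on the segments were spread over the types. Of 23 recombination and early B cell genes, 8 (34.8%) were in type 1, 7 (30.4%) in type 3 and 6 (26.1%) in type 4. The shares of all RefSeq genes were 33.0%, 31.0% and 15.9%, so those in types 1 and 3 were close to them. Xrcc5, a DNA end-joining gene, was alone in type 2 (85.7% of the body). Rag2 was alone in type 5 (100% of the body), and Rag1, its neighbour and partner in the recombinase, was in type 4 (84.5%). Pax5 and Ebf1, transcription factors of early B cells, were in type 4 (89.2% and 64.6% of the body), with Ikzf1 and Blk. Other transcription factors of the list were not in type 4: Tcf3, Pou2f2 and Pou2af1 were in type 3, and Yy1 and Pou2f1 in type 1. Dntt, which adds bases at the joints, was in type 3 with the receptor genes Cd79a and Cd79b. Of the surrogate light chain genes, which stand in for a light chain in pre-B cells, Igll1 and Vpreb1 were in type 1, and Vpreb2 and Vpreb3 in type 3.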

How the data were processed

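The values are type labels from 1 to 5 that the authors deposited as 1 ChromHMM division of mm10 for the whole series. The submitters' processing notes name Bowtie2 2.3.4.3, deepTools 3.0.2, Picard 2.8.0 and Trim Galore 0.4.5. What ChromHMM version and bin size were used, which libraries entered the model, what the types mean and how reads that match several places were treated is not given in the sources used here. A label is a category given without a library, replicate or depth, so no level was tested and depth is unknown.

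All segment starts were multiples of 5 kb, and 31563 segments were laid on 492539 bins of 5 kb. In 261 bins, none of them in the arrays, 2 segments overlapped and the shorter was used. Gene positions and kinds came from a RefSeq table of GRCm38.p6 (mm10), and 333 genes on scaffolds were left out. Each gene took the type that covers the largest part of its body, and shares have exact 95% Clopper-Pearson intervals (SciPy 1.17.1, with Python 3.11.15, pandas 2.3.3 and numpy 2.4.6). Each array runs from its first to its last member. The assignment was tested on simulated segments. The members, lists and alternatives were chosen with earlier results of these data known. The text names the first and last member of each type in a locus, members in more than 1 type or in a type with 5 or fewer members of the locus, members beside each change of type (at Igk, beside the longest segments), the J and D clusters, and the constant and surrogate light chain genes. Of 24 recombination and early B cell names, 23 were on the chromosomes analysed, and some of them are not reported here by name.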

Additional observations from a re-analysis of the deposited data

How the results depend on the processing

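Of 104 alternative values of the members' shares, 94 stayed within the counting interval of the share and 10 moved past it. With members of 1 segment counted once, type 2 held 12% of the 50 segments. With 1 member per 5 kb bin, type 4 held 0.837%. The other 8 came from alternatives chosen after seeing the data. Without the 740 kb type 5 segment, all members were 50% type 1 and 38% type 5, Igh members 61.1% and 20%, and the V genes nearer to J 52.4% and 33.3%. Without the 390 kb type 1 segment, Igk members were 25.6% type 1 and 66.7% type 5. By construction these leave out members of 1 type. Types read from the middle or either end of the gene, from the gene with 5 or 20 kb added, from the longer of overlapping segments, or with pseudogenes kept gave no share past its interval. No bins of the arrays overlapped, so the choice of the longer segment could not change any member. As 246 of the 247 members lay wholly in 1 type, the middle or either end could change only Igkv1-135. These alternatives therefore add little to the 94 values that stayed. With members and 20 kb on each side only, the 5 shares of array sequence compared stayed within such an interval computed over 5 kb bins. In 500 kb flanks 6 of 10 shares of flank sequence moved, and with protein-coding genes only all 5 background shares did. No paired analysis was possible because the table has no column for a library. Depth is unknown, so no limit from it can be given.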
